A study of Mus musculus with 6 samples.

Results

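The 10 genes described here encode parts of the circadian clock: Per1, Per2, Cry1, Cry2, Nr1d1, Nr1d2, Dbp, Tef, Clock and Bhlhe40. They were taken by symbol from the deposited table of 16108 genes, and 10 of 10 were found. The cells were RAW264.7, a mouse macrophage-like line, left to attach to acoustic devices overnight. Their RNA was sequenced after a further 48 h with the acoustics off (3 libraries) or on at 18 V peak to peak and 5 kHz (3 libraries). Both groups carried the cells on devices and are called the off and on libraries. The petri-dish control of the study was not analysed here. Levels are FPKM, reads scaled by transcript length and library size. Levels of different genes can be compared only roughly, since trends with transcript length remained and differed between libraries. No label states that replicates were separate cultures, so p-values reflect only how far these libraries spread, possibly for technical reasons.

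The clock is a feedback loop of transcription that runs in most cells, macrophages included, with a period of about a day. CLOCK and its partner BMAL1 (gene Arntl) bind E-box elements and switch on the Per, Cry, Nr1d, Dbp, Tef and Bhlhe40 genes. PER and CRY proteins then inhibit CLOCK and BMAL1. The REV-ERB proteins from Nr1d1 and Nr1d2 repress Arntl, and in macrophages also repress inflammatory genes. DBP and TEF activate D-box elements, at which NFIL3 acts as a repressor. The libraries sampled 1 time point, so a change in level, in phase or in synchrony between cells cannot be told apart, and in bulk RNA neither can fewer cells of a type and less RNA per cell.

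The E-box, the element through which CLOCK acts, is printed as it occurs before 3 of these genes, and the D-box before Per3, another Per gene outside the 10. The E-box was searched as CACGTG, the D-box as TTATGTAA or TTACGTAA, the ROR element bound by REV-ERB proteins as TAGGTCA or TGGGTCA, and the cAMP response element as TGACGTCA, each on both strands. Windows ran from 250 bases before to 50 after each start site in RefSeq (GRCm38.p6), and 8 of the 10 genes had 1 or more. Per2 and Bhlhe40 had no window in the table used. Capitals mark the element, and sequences run 5′ to 3′ on the gene's strand.
Per1 E-box, chr11:69098753-69098818, plus strand: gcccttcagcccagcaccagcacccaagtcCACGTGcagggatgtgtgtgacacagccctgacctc
Cry1 E-box, chr10:85185079-85185144, minus strand: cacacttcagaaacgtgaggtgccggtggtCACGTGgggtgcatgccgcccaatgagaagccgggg
Tef E-box, chr15:81811246-81811311, plus strand: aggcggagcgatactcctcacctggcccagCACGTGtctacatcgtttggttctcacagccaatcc
Per3 D-box pair, chr4:151044786-151044900, minus strand: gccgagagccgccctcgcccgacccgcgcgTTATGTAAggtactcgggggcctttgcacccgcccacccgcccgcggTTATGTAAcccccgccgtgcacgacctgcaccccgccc
The Per1 element lies 166 bases before a start site, inside an intron of a longer annotated Per1 transcript. The Cry1 element lies 60 bases before its start, upstream of the gene. The Tef element lies 138 bases before an internal start, in an intron, and a further Tef window held an E-box that touches an exon and is not shown. Of the 8 genes with a window, 3 held the E-box (Per1, Cry1 and Tef), against 8.09% of 27025 genes. The D-box, the ROR element and the cAMP response element were each in 0 of the 8, against 1.23%, 7.35% and 2.03% of all genes. A match is a description of these letters and not a measured binding site.

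Each of the 10 clock genes had a lower mean FPKM in the on libraries than in the off libraries, and in none did the difference pass the test. The on mean ran from 70.6% of the off mean (Per2) to 94.1% (Cry1). Nr1d2 stood at 75.2% and Clock at 77.7%, and in both a single library lay far below the others. Dbp, the gene with the highest level, stood at 82.2% with groups that did not overlap. Of the 10 genes, 0 rose and 0 fell (limma on log2(FPKM + 1), Benjamini-Hochberg adjusted p from 0.30 to 0.75), and 0 had an unadjusted p under 0.05. Among the 11664 genes that passed a filter on low values, 2.07% passed the adjusted threshold (1.50% higher and 0.574% lower) and 19.7% had an unadjusted p under 0.05. The 10 differences were all negative, with a median of -0.26 on the log2 scale, where 53.0% of all genes tested were negative and their median was -0.03. All 10 passed the filter, which asked for 0.5 FPKM or more in 3 or more libraries.

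**Figure D1:**
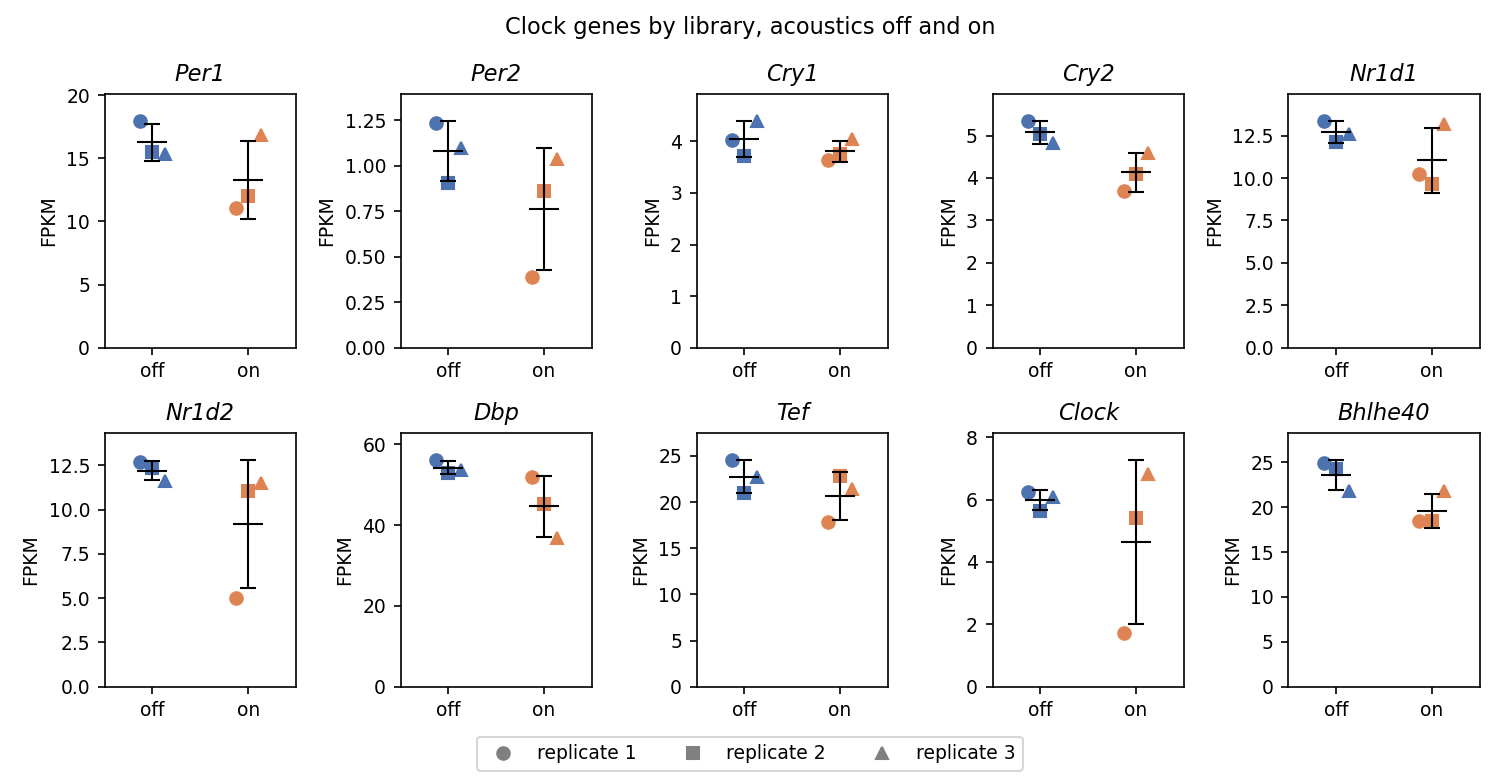
FPKM of each clock gene (y axis, from 0) in the 3 off and 3 on libraries. Symbols mark the replicate, and the horizontal mark and bars give the mean and SD (n = 3). Cry2, Nr1d2 and Dbp have groups that do not overlap, and the on circles of Clock (1.73 FPKM) and Nr1d2 (5.00 FPKM) lie far below the other on points.

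The order of levels was the same in both groups except in 1 place. With acoustics off it ran from Dbp (54.2 ± 1.71 FPKM, SD, n = 3) through Bhlhe40 (23.6 ± 1.66), Tef (22.8 ± 1.82), Per1 (16.3 ± 1.47), Nr1d1 (12.7 ± 0.63), Nr1d2 (12.2 ± 0.53), Clock (5.98 ± 0.31), Cry2 (5.07 ± 0.26) and Cry1 (4.05 ± 0.34) to Per2 (1.08 ± 0.17). Bhlhe40 and Tef overlapped, as did Nr1d1 and Nr1d2, and the other neighbours in that order did not. With acoustics on, Tef (20.7 ± 2.58) averaged above Bhlhe40 (19.6 ± 1.93). Of the paired genes, Per1 was 15.2 ± 1.66 times Per2 in the off libraries. Cry2 was 1.26 ± 0.14 times Cry1, and Nr1d1 was 1.04 ± 0.05 times Nr1d2. In the authors' deposited table the mean normalised counts of the 10 genes ran from 234.0 (Per2) to 3580 (Tef), and a single library with such a count would have a counting error, as a coefficient of variation, of 1.67% to 6.54%.

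Clock, the activating gene of the loop (chromosome 5, 76209868 to 76304792, GRCm38), was at 6.23, 5.63 and 6.09 FPKM in the off libraries and 1.73, 5.41 and 6.82 in the on libraries. Acoustics-on replicate 1 was at 28.9% of the off mean, while replicates 2 and 3 were at 90.4% and 113.9%, so the groups overlapped. The log2 difference was -0.44 (SE 0.37, adjusted p = 0.50), and it was 0.02 without on replicate 1 (adjusted p = 0.93). Arntl, the gene of its partner BMAL1, was at 6.88, 6.58 and 7.15 FPKM in the off libraries and 4.80, 6.00 and 7.06 in the on libraries (log2 difference -0.19, adjusted p = 0.48). The same library was the lowest in both genes of the activating pair.

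Among the Per genes, whose proteins inhibit CLOCK and BMAL1, Per1 (chromosome 11, 69095217 to 69109960) was at 17.97, 15.5 and 15.4 FPKM in the off libraries and 11.1, 12.02 and 16.8 in the on libraries. Acoustics-on replicates 1 and 2 were below every off library and replicate 3 was within their range. The log2 difference of Per1 was -0.29 (SE 0.18, adjusted p = 0.37). Per2 (chromosome 1, 91415982 to 91459324) was at 1.24, 0.91 and 1.10 FPKM in the off libraries and 0.39, 0.86 and 1.04 in the on libraries. Its log2 difference was -0.25 (SE 0.17, adjusted p = 0.41), and -0.09 without on replicate 1. Per2 is close to the pseudocount of 1, and in the authors' deposited table, which works on counts, its log2 fold change was -0.50 (adjusted p = 0.47 there).

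The Cry genes encode the repressors that act with the PER proteins. Cry1 (chromosome 10, 85131700 to 85185064) was at 4.02, 3.72 and 4.40 FPKM in the off libraries and 3.64, 3.75 and 4.04 in the on libraries. It had the smallest difference of the 10 (log2 difference -0.07, SE 0.13, 95% interval -0.37 to 0.23, adjusted p = 0.75). Cry2 (chromosome 2, 92403646 to 92434043) was at 5.35, 5.03 and 4.83 FPKM in the off libraries and 3.69, 4.10 and 4.60 in the on libraries. Every on library of Cry2 was below every off library, and the log2 difference was -0.25 (SE 0.13, 95% interval -0.55 to 0.06, adjusted p = 0.32).

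Nr1d1 and Nr1d2 encode REV-ERB alpha and beta, haem-binding nuclear receptors that repress transcription. Nr1d1 (chromosome 11, 98767932 to 98775333) was at 13.4, 12.1 and 12.6 FPKM in the off libraries and 10.2, 9.68 and 13.2 in the on libraries. Replicate 3 overlapped the off range, and the log2 difference was -0.20 (SE 0.15, adjusted p = 0.45). Nr1d2 (chromosome 14, 18204054 to 18239127) was at 12.7, 12.3 and 11.6 FPKM in the off libraries and 5.00, 11.04 and 11.5 in the on libraries. Its groups did not overlap, but replicates 2 and 3 were at 90.5% and 94.3% of the off mean and replicate 1 at 40.9%. The log2 difference was -0.45 (SE 0.28, adjusted p = 0.39), and -0.10 without on replicate 1 (adjusted p = 0.46). Nr1d1 was also set against Arntl, the gene that REV-ERB proteins repress, as log2((Nr1d1 + 1)/(Arntl + 1)) of the FPKM in each library. This value was 0.80 ± 0.06 in the off libraries and 0.79 ± 0.17 in the on libraries (SD, n = 3, exact two-sided permutation p = 1, where the smallest possible is 0.1).

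Dbp and Tef encode activators of the D-box. Dbp (chromosome 7, 45705088 to 45710203) was at 56.2, 52.9 and 53.6 FPKM in the off libraries and 51.8, 45.1 and 36.9 in the on libraries. Every on library was below every off library, and replicate 3, in which most of the other clock genes were near their off level, was the lowest for Dbp. The log2 difference was -0.29 (SE 0.15, 95% interval -0.64 to 0.06, adjusted p = 0.31), and -0.40 without on replicate 1 (95% interval -0.64 to -0.16, adjusted p = 0.062). Without on replicate 3 it was -0.16 (adjusted p = 0.34), so its size depended on that library. Tef (chromosome 15, 81802421 to 81826863) was at 24.6, 20.95 and 22.8 FPKM in the off libraries and 17.8, 22.8 and 21.4 in the on libraries (log2 difference -0.14, SE 0.14, adjusted p = 0.57). Nfil3, the D-box repressor, was at 9.37, 8.88 and 9.02 FPKM in the off libraries and 10.7, 8.18 and 9.23 in the on libraries (adjusted p = 0.89). Dbp set against Nfil3 in the same way, log2((Dbp + 1)/(Nfil3 + 1)), was 2.46, 2.45 and 2.45 in the off libraries and 2.17, 2.33 and 1.89 in the on libraries. These values did not overlap between groups, and the difference of -0.32 gave an exact two-sided permutation p of 0.1, the smallest that 3 against 3 libraries allow.

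Bhlhe40 encodes DEC1, a repressor that competes with CLOCK and BMAL1 at the E-box. It lies on chromosome 6, 108660629 to 108666925, and was at 24.9, 24.2 and 21.8 FPKM in the off libraries and 18.5, 18.5 and 21.8 in the on libraries. Acoustics-on replicate 3 lay just inside the off range and the other on libraries below it. It had the smallest p of the 10 genes (log2 difference -0.26, SE 0.13, 95% interval -0.56 to 0.04, adjusted p = 0.30). The genes whose log2(FPKM + 1) followed it most closely over the 6 libraries, of 8151 with a mean FPKM of at least 5, were Tmem201, Nfkb1, Med12 and Flvcr1, with Pearson correlations of 0.98, 0.97, 0.97 and 0.97. These points share their libraries and their group difference, so the correlations are a description.

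For Cry2, Nr1d2 and Dbp, every on library was below every off library, which is 3 of 10 clock genes. Of all genes tested, 17.7% had groups apart in that direction. In the other direction 0 of 10 had groups apart, against 17.1% of all genes. Exons of Dbp, Nr1d1, Cry2, Tef and Bhlhe40 overlap exons of genes on the opposite strand, and counting by strand is not stated in the sources used here, so reads in the shared part cannot be assigned. The largest overlap was 539 bases (18.0% of annotated Dbp exon bases) with Sphk2, at 42.2 ± 3.16 FPKM in the off libraries and 40.0 ± 5.50 in the on libraries (adjusted p = 0.73). Nr1d1 shares 263 bases (8.55%) with Thra, which averaged 29.4 ± 2.02 and 22.9 ± 2.73 FPKM (adjusted p = 0.22).

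The 95% intervals on the log2(FPKM + 1) scale reached below -1 for Nr1d2 (-1.12 to 0.22) and Clock (-1.31 to 0.44), and did not for the other genes. For Per2 this says little, since its level is close to the pseudocount and the scale compresses its change. From the standard errors in the authors' deposited table, which are on the scale of counts, the 95% intervals were -1.23 to 0.23 for Per2, -1.20 to 0.47 for Clock and -1.04 to 0.21 for Nr1d2. In the authors' deposited table the log2 fold changes of the 10 genes were also all negative and 0 passed, with adjusted p from 0.31 to 0.82, while 7.56% of genes there had an adjusted p under 0.05 (2.49% on the lower side).

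**Figure D2:**
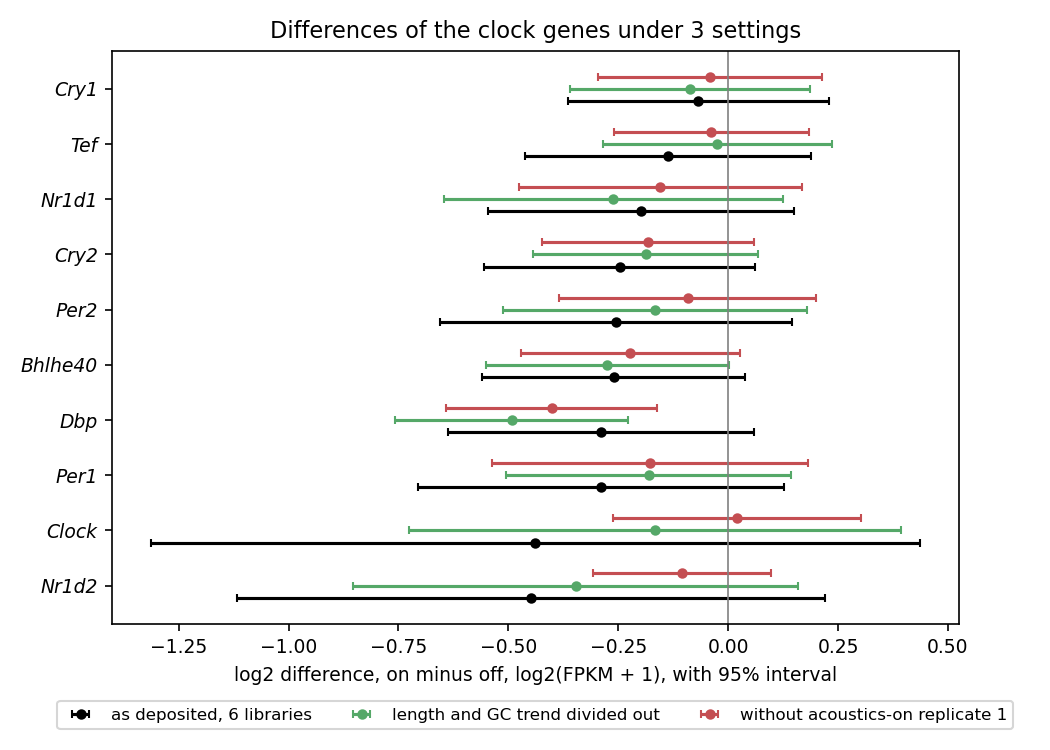
Log2 difference of each clock gene, on minus off, on the log2(FPKM + 1) scale (x axis), with its 95% interval, for the deposited values, after dividing out each library's trends with length and GC, and without on replicate 1. The intervals of Clock and Nr1d2 shorten most without that library, and the interval of Dbp excludes 0 in both alternatives while its adjusted p does not pass in either (0.057 and 0.062).

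The on libraries differed from each other. In replicate 1, 10 of 10 clock genes were below every off library, against 46.8% of all genes tested. In replicate 2 this held for 8 of 10, against 39.1%, and in replicate 3 for 3 of 10 (Cry2, Nr1d2 and Dbp), against 38.8%. The median of the 10 differences from the off mean was -0.35, -0.20 and -0.05 in on replicates 1, 2 and 3, where the medians of all genes lay between -0.04 and 0.00. Without on replicate 1 the difference of Per1 was -0.18, that of Tef -0.04 and that of Arntl -0.07. In that setting the median difference of the 10 was -0.13, with 9 of 10 negative, against 51.6% of all genes, and 0 of 10 passed, against 7.44%. With libraries weighted by their fit, 5 of 10 passed (Per1, Cry2, Nr1d1, Dbp and Bhlhe40), each lower, against 55.9% of all genes, and on replicate 2 carried nearly all the weight of its group.

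Transcript length moved with these differences. Across 9972 protein-coding genes, the rank correlation of the difference from the off mean with transcript length was -0.56, -0.46 and 0.03 in on replicates 1, 2 and 3. Each off library was set against the mean of the remaining off libraries, a slightly different measure. This gave 0.24, -0.31 and 0.05 in off replicates 1, 2 and 3, so trends of both signs occurred there too. Across the 10 clock genes the correlation was -0.92, 0.25 and 0.44 in on replicates 1, 2 and 3. Those points share a library, and the genes are not independent. The longest transcripts of the 10 ran from 1837 bases (Dbp) to 9744 (Clock). In replicate 1, Clock differed from the off mean by -1.36, where the median of protein-coding genes longer than 7500 bases was -0.67. Nr1d2 (4663 bases) differed by -1.14 in replicate 1, where genes of 3500 to 5000 bases had a median of -0.28. Dbp was below the median of genes up to 2000 bases in each on library, at -0.06, -0.26 and -0.54 where those medians were 0.53, 0.18 and -0.01.

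**Figure D3:**
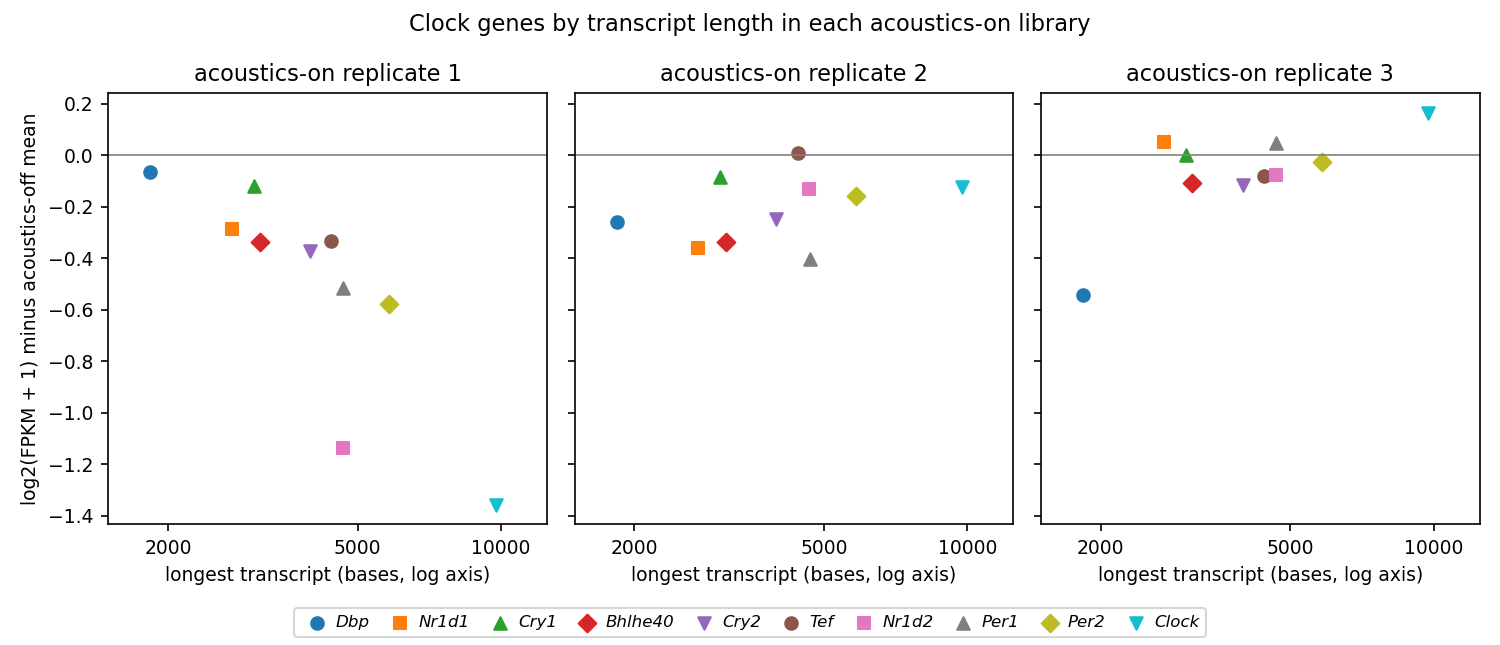
Difference of each clock gene from its off mean on the log2(FPKM + 1) scale (y axis) against the length of its longest annotated transcript in bases (x axis, log scale), in each on library. In replicate 1 the longer transcripts lie lower, down to -1.36 for Clock, and in replicate 3 Dbp, the shortest, lies alone at -0.54.

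With the length and GC trend of each library divided out, Dbp had the largest difference of the 10. Its corrected values were 60.5, 55.3 and 59.9 FPKM in the off libraries and 36.9, 46.5 and 41.1 in the on libraries. The log2 difference was -0.49 (SE 0.11, 95% interval -0.76 to -0.23, adjusted p = 0.057), where the deposited values gave -0.29. Clock then differed by -0.17 (adjusted p = 0.68), Nr1d2 by -0.35 (adjusted p = 0.35) and Bhlhe40 by -0.27 (adjusted p = 0.21). Of the 10 genes 0 passed, against 4.97% of all genes, and 10 of 10 were negative, against 56.6%. With the correction and on replicate 1 left out, Dbp passed (log2 difference -0.41, SE 0.08, adjusted p = 0.028), as 1 of 10 clock genes, against 11.4% of all genes.

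Among other genes of the loop, 0 passed the limma test and 0 had an adjusted p under 0.05 in the authors' deposited table. Of 12 symbols listed, 8 were in the table and 5 passed the filter (Per3, Arntl, Nfil3, Bhlhe41 and Ciart), with 0 at an unadjusted p under 0.05. Per3 was at 2.67, 2.78 and 2.88 FPKM in the off libraries and 1.26, 2.42 and 2.14 in the on libraries, groups that did not overlap (log2 difference -0.38, adjusted p = 0.28). Its difference was -0.20 without on replicate 1, and -0.23 with groups that overlapped after the length and GC correction. Bhlhe41, which encodes the DEC2 repressor, averaged 38.4 ± 2.73 and 44.2 ± 7.42 FPKM (log2 difference 0.19, adjusted p = 0.49), the opposite sign to its relative Bhlhe40. The difference of Bhlhe41 was 0.33 without on replicate 1 (adjusted p = 0.063) and 0.43 with the correction (adjusted p = 0.060). With the correction and on replicate 1 left out, it was 0.41 and passed, higher (limma adjusted p = 0.034). That was 1 of 5 loop genes tested, against 11.4% of all genes. Ciart, another repressor of CLOCK and BMAL1, averaged 5.21 ± 0.64 and 5.11 ± 0.49 FPKM (adjusted p = 0.94).

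The enzymes that modify or degrade clock proteins, and the partners and corepressors of the loop, gave no call in the authors' deposited table. They also gave none by limma on the deposited values of all 6 libraries, equally weighted. Of 17 kinase, phosphatase and ubiquitin-pathway genes tested, 0 passed, with a median log2 difference of -0.18, which was -0.018 without on replicate 1. The deubiquitinase gene Usp2 had the smallest p of these (log2 difference -0.49, adjusted p = 0.15), followed by Csnk1e, a kinase of PER proteins (log2 difference -0.29, adjusted p = 0.26), and Huwe1 (log2 difference -0.81, adjusted p = 0.29). Without on replicate 1 the difference of Huwe1 was -0.36. Of 15 partners and corepressors, 0 passed, with a median of -0.04. The smallest p there belonged to Nono (log2 difference -0.40, adjusted p = 0.17), Ddx6 (-0.61, 0.18) and the REV-ERB corepressor gene Ncor1 (-0.45, 0.28). Without on replicate 1 the differences of Ddx6 and Ncor1 were -0.39 and -0.25, and after the length and GC correction that of Ncor1 was -0.084. With the correction and on replicate 1 left out, 2 of the 15 passed, both lower, against 11.4% of all genes. They were Nono (-0.36, limma adjusted p = 0.025) and Ddx6 (-0.33, limma adjusted p = 0.043). Of 13 clock-controlled output genes, 0 passed by limma and 5 had an unadjusted p under 0.05, where 19.7% of all genes did. Groups were apart upward in 5 and downward in 2, against 17.1% and 17.7% of all genes. Of these genes, 4 were called higher in the authors' deposited table, namely Por (adjusted p = 0.0020), Alas1 (0.0049), Cdkn1a (0.0097) and Coq10b (0.030). Of all genes there, 7.56% had an adjusted p under 0.05 in either direction, and 2.49% on the lower side. The haem synthesis gene Alas1 averaged 52.1 ± 2.93 FPKM in the off libraries and 77.9 ± 7.95 in the on libraries (log2 difference 0.57, adjusted p = 0.082), and passed once length and GC were corrected for (adjusted p = 0.035). Por, the gene of the reductase that serves cytochrome P450 enzymes, averaged 70.8 ± 3.62 and 153.3 ± 52.8 FPKM (log2 difference 1.04, limma adjusted p = 0.10). It passed with the same correction (adjusted p = 0.049) and without on replicate 2 (adjusted p = 0.018).

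Further lists were the cAMP and CREB input to the clock, and the glucocorticoid receptor with its targets. Each held 1 gene that limma called, both lower. The authors' deposited table called 2 of 16 genes in the first list, Sik1 and Crtc3 (adjusted p = 0.026), both lower. In the second it called 3 of 9, Dusp1, Ddit4 (adjusted p = 0.0031) and Sgk1 (adjusted p = 0.047), all lower. Of all genes there, 2.49% were called lower. Sik1, a kinase gene induced by cAMP that restrains CREB coactivators, was at 2.87, 3.27 and 3.80 FPKM in the off libraries and 0.58, 0.86 and 0.78 in the on libraries. It fell by 1.31 on the log2 scale (SE 0.14, limma adjusted p = 0.0094) and did not pass without off replicate 2 (adjusted p = 0.069) or 3 (adjusted p = 0.065). Its on mean was 22.3% of the off mean, and as these levels are near the pseudocount the difference was -2.03 with a pseudocount of 0.1 and -2.16 in the authors' deposited table. It was the 1 gene called of 15 in the cAMP and CREB list, where 0.574% of all genes were called lower by limma. The median of that list was -0.38, and -0.12 without on replicate 1. Of 9 genes tested in the glucocorticoid receptor and target list, which includes Per1, 1 fell by limma, where 0.574% of all genes did. In that list 9 had a negative difference and 7 an unadjusted p under 0.05, where 53.0% and 19.7% of all genes did. The gene that fell was the phosphatase gene Dusp1, at 72.9, 151.7 and 228.2 FPKM in the off libraries and 19.2, 26.7 and 34.2 in the on libraries (log2 difference -2.35, SE 0.41, adjusted p = 0.044). It did not pass without off replicate 2 or 3 or on replicate 2 or 3 (adjusted p = 0.18, 0.14, 0.089 and 0.096), or with no filter on low values (adjusted p = 0.079). The receptor gene Nr3c1 averaged 15.98 ± 0.87 and 9.67 ± 3.71 FPKM (adjusted p = 0.21), and Tsc22d3, a glucocorticoid-induced gene, averaged 22.6 ± 1.11 and 15.2 ± 3.98 FPKM (adjusted p = 0.17). Fkbp5, on the same list, was little changed, at 8.25 ± 0.09 and 7.97 ± 1.07 FPKM (log2 difference -0.05, limma adjusted p = 0.83). The median of that list was -0.43, and -0.40 without on replicate 1.

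Of 8 tested genes listed as repressed by REV-ERB proteins in macrophages, 2 rose and 0 fell by limma. Of all genes tested, 1.50% rose and 0.574% fell. The authors' deposited table called the same 2, where 7.56% of all its genes had an adjusted p under 0.05. Ccl2, a monocyte-attracting chemokine gene, was at 7.59, 7.30 and 8.46 FPKM in the off libraries and 156.4, 65.8 and 72.5 in the on libraries (log2 difference 3.39, limma adjusted p = 0.0063). Mmp9, a matrix protease gene, was at 2.36, 3.25 and 2.24 FPKM and 14.9, 8.27 and 15.3 FPKM (log2 difference 1.90, limma adjusted p = 0.017). Mmp9 did not pass without any 1 of the off libraries or without on replicate 3 (adjusted p = 0.12, 0.079, 0.11 and 0.073), and Ccl2 did not without off replicate 2 (adjusted p = 0.055). Cx3cr1, a chemokine receptor gene on the same list, averaged 145.0 ± 14.2 and 77.9 ± 30.7 FPKM (log2 difference -0.97, adjusted p = 0.17), and the list's median was -0.06. Without on replicate 1 the list held 2 genes that rose and 1 that fell, where 7.44% of all genes passed. Those counts were the same with the length and GC correction as well, where 11.4% of all genes passed. The list's other tested members were Cry1, Clock, Arntl, Nfil3 and E2f8, of which 0 passed. Il6 and Npas2, also listed, did not pass the filter and were not tested. Il6 was at 0 FPKM in every off library and at 0, 1.16 and 1.17 in on replicates 1, 2 and 3. Its adjusted p in the authors' deposited table was 0.27.

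**Figure D4:**
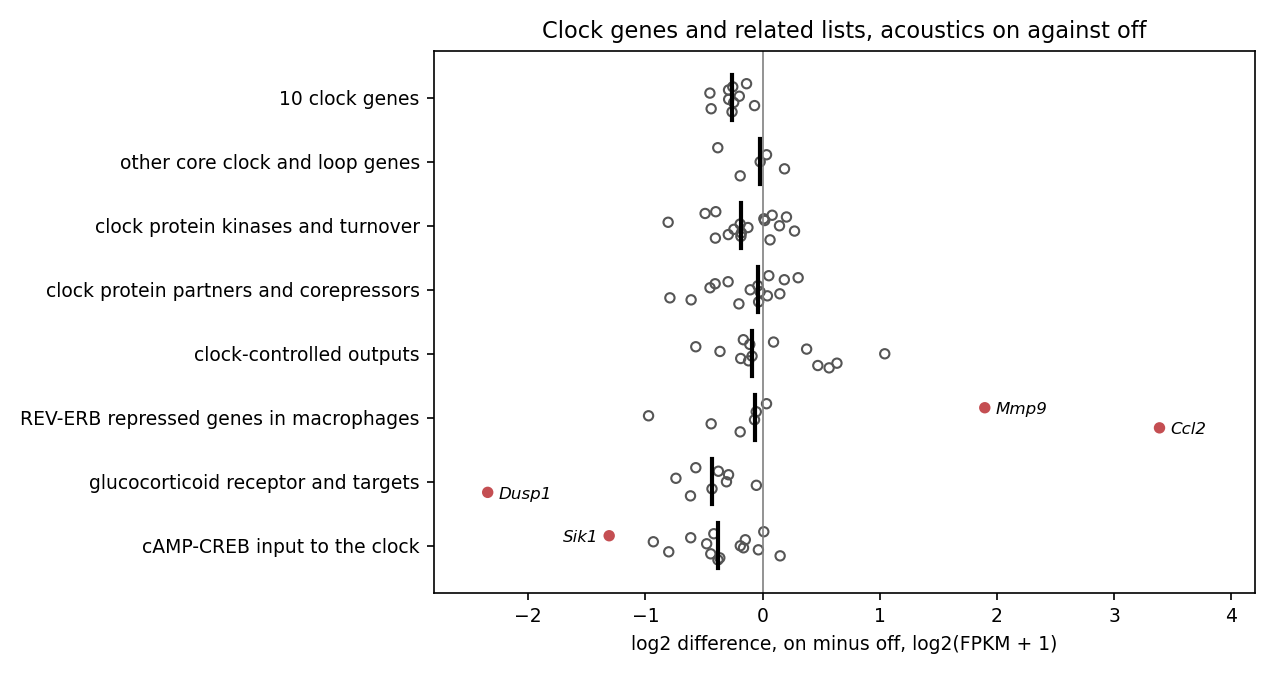
Log2 difference, on minus off, on the log2(FPKM + 1) scale (x axis) for each tested gene of the 10 clock genes and 7 related lists; filled points passed the limma adjusted threshold and black bars are list medians. The 10 clock genes lie between -0.45 and -0.07 with 0 filled points, and the filled points are Mmp9, Ccl2, Dusp1 and Sik1.

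The label of the cells was checked against markers. Of 9 macrophage markers, 9 passed the filter, and their summed FPKM ran from 27192 to 29363 in the off libraries and from 18826 to 26065 in the on libraries, most of it Lyz2. Of 7 fibroblast markers 6 were in the table, with sums of 2.83 to 3.79 and 1.91 to 3.90 FPKM. Of 5 epithelial and 6 lymphocyte markers 1 each was in the table, at no more than 0.12 and 0.09 FPKM. The macrophage receptor gene Csf1r averaged 809.3 ± 45.9 and 457.4 ± 109.4 FPKM (log2 difference -0.85, limma adjusted p = 0.096, and 0.036 without on replicate 1), and the authors' deposited table called it lower (adjusted p = 0.0044). Of the 9 macrophage markers, 7 had a negative log2 difference and 2 a positive one, Fcgr1 (0.29) and Spi1 (0.063), and 0 passed by limma. The part of these marker levels in the clock gene differences was not tested.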

How the data were processed

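RNA-seq of RAW264.7 cells came as 2 tables. The authors deposited FPKM per gene and library, and a table of their comparison with mean normalised counts (a signal averaged over libraries), log2 fold changes with standard errors, a Wald score and p-values. The programs listed were DESeq2 1.38.2, Salmon 1.4.0, STAR 2.7.11 and Trim Galore 0.6.8, with GRCm38, per the submitters' processing notes; their order is not given in the sources used here. Per the labels' protocols ribosomal RNA was depleted, while the molecule field says polyA RNA. No counts per library were in the files used, so library depth is unknown. On log2(FPKM + 1), limma 3.58.1 in R 4.3.3 compared on minus off with a trended, robust prior and Benjamini-Hochberg adjustment at 0.05 over all genes tested, those with 0.5 FPKM or more in 3 or more libraries. The log2(FPKM + 1) scale understates the change of low genes. Only this limma fit was tried on simulated data, with independent noise for each gene and library. Those data held no length trend or outlying library, and the other steps were not tested on them. The length and GC correction divided out a loess trend (span 0.5) per library, fitted where protein-coding genes averaged 1 FPKM or more. Coordinates and lengths are those of GENCODE M21 (GRCm38), which held 15943 of the symbols. Other alternatives were the pseudocount, filter, scaling, variance prior, library weights, replicate block and leaving out each library. The scaling alternative divided all 6 libraries by the same factor (1.01), so it did not vary the scale between libraries. Members and lists were chosen with earlier results of these data known. Named were the 10 genes, the listed genes past the threshold or otherwise up to 3 with the smallest p per list, and 4 genes most like the clock gene with the smallest p. Nr3c1, Tsc22d3, Fkbp5, Cx3cr1, E2f8, Il6, Npas2, Cdkn1a, Crtc3, Ddit4, Sgk1, Fcgr1, Spi1 and the overlapping genes were named after their values were seen. Ciart was also named outside that rule, and Nfil3 for its ratio with Dbp. Others named by the rule were the macrophage markers Itgam and Mertk (limma adjusted p of 0.20 and 0.20). The fibroblast markers Pdgfrb and Col3a1, and the clock outputs Coq10b and Por, had limma adjusted p of 0.18, 0.64, 0.14 and 0.10.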

Additional observations from a re-analysis of the deposited data

How the results depend on the processing

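The count of clock genes past the threshold was 0 as reported, 0 to 0 leaving out each library in turn, and 0 in the other alternatives except 2. The scaling alternative is no test here, since it did not vary the scale between libraries. Library weights gave 5, but weighted on replicate 2 at 13.4 and on replicates 1 and 3 at 0.062 and 0.19, so that fit rests on little more than 1 on library, and it called 6526 genes. Correcting for length and GC while leaving out on replicate 1 gave 1 (Dbp), with 1320 genes called and a median difference of the 10 of -0.087. That median ran from -0.33 to -0.13 with a library left out. Clock ran from -0.74 to 0.020 with a library left out, 0.020 being without on replicate 1, and turned to 0.12 with the correction as well. Tef turned to 0.025 in that last setting and to 0.011 with library weights. The Nr1d1 to Arntl difference of -0.01 turned to 0.0056 with a pseudocount of 0.1 and ran from -0.088 to 0.085 with a library left out. The count over all genes, 242, was 150 with no filter, 152 with 1 FPKM or more in all 6 libraries, 581 with the correction, and 17 (without off replicate 2) to 855 (without on replicate 1) with a library left out. Of the 76 other listed genes tested 4 passed, where 2.07% of all genes did. That count was 7 with the correction and 14 with the correction and on replicate 1 left out. It was 51 with library weights, and 0 to 10 with a library left out. Beyond the settings' own construction the cause was not tested. Whether the replicate numbers pair the libraries is not known. Deviations of same-numbered libraries from their group means correlated at -0.073, -0.020 and -0.0039, and those of different-numbered libraries at -0.12 to 0.12. With 3 libraries per group such values cannot settle it. With a replicate block 0 clock genes and 179 genes in all passed.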
